A study of Mus musculus with 230 samples.

Results

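The genes described here belong to families of transcription factors that lay down the plan of the embryonic brain: the LIM-homeodomain (Lhx), Dlx, sine oculis-related (Six3, Six4, Six5 and relatives), Meis, Pbx, Emx, Otx, Nkx, POU (Pou), Sox, T-box (Tbr), Neurod, forkhead (Foxp and Foxa), Pitx, Iroquois (Irx) and Zic families. A member was a protein-coding gene whose symbol starts with one of these names and a digit, with a mean of 1 CPM (counts scaled to a common library total) or more in at least 1 brain region of control mice. Of the families' genes that were counted, 78 met this level and 27 did not, and 14284 protein-coding genes in all met it. The members just inside the limit were Lhx3 at 1.02 CPM, Pou4f2 at 1.03 CPM and Lhx4 at 1.17 CPM, and the genes just outside it were Irx4 at 0.72 CPM, Pou2f3 at 0.64 CPM and Nkx6-1 at 0.53 CPM. The members were thus chosen by their mean CPM in the control mice, so those levels are given as a description, and each test of a regional difference was made in other mice.

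These proteins bind DNA and act in combinations. In the embryo they divide the neural tube into territories, and in the neurons born there many of them stay on through adult life, where they maintain the cell's transmitter and receptor genes. Dlx, Six3 and Meis2 mark the GABAergic neurons born in the ventral forebrain, Neurod factors, Tbr1 and Emx1 the glutamatergic neurons of cortex and hippocampus, and Foxa1, Foxa2 and Pitx3 the floor of the midbrain, from which dopamine neurons arise. Several Sox factors belong to glia or blood vessels instead: Sox10 to the oligodendrocyte lineage, Sox9 to astrocytes and Sox17 to endothelium.

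The libraries came from 45 male C57BL/6J mice and 6 regions: basolateral amygdala (BLA), dorsal striatum (CPu), nucleus accumbens (NAc), prefrontal cortex (PFC), ventral hippocampus (vHipp) and ventral tegmental area (VTA). All mice had self-administered either saline or cocaine and carried no engineered allele that the labels name. The 8 control mice, called S24, self-administered saline and were killed at 24 h of withdrawal with no injection, and the 8 C24 mice differed from them in having self-administered cocaine. The remaining mice were killed at 30 d of withdrawal, 1 h after a single intraperitoneal challenge. They are named by what they self-administered and then by what was injected: SS (saline, saline; 8 mice), SC (saline, cocaine; 8 mice), CS (cocaine, saline; 6 mice) and CC (cocaine, cocaine; 7 mice). The labels give no age. Each region was a piece of bulk tissue, so fewer cells of a type and less RNA per cell cannot be told apart in any value below.

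There were 230 libraries, of 31 (VTA) to 42 (CPu) per region and 3 to 8 per region and condition, with total counts of 11866570 to 42135683. The regional labels were checked against known markers: the dopamine transporter Slc6a3 had a median of 1609 CPM in VTA and at most 0.953 CPM in the medians of the other regions, and the vesicular glutamate transporter Slc17a7 had medians of 1521 CPM in PFC, 1408 in vHipp and 754 in BLA. Of the 230, 23 libraries (12 of vHipp, 7 of BLA, 2 of NAc and 2 of VTA) stood apart with a high level of choroid plexus, ependymal, leptomeningeal or blood markers. The 64 regional comparisons picked by the naming rule, over 27 genes, kept their direction and call without them. Among libraries outside VTA, 5 of 199 held more than 1 CPM of at least 1 of 13 members restricted to VTA. One of these, the vHipp library of 1 control mouse, had 159.8 CPM of Slc6a3 and 2.86 CPM of Foxa1. The medians also hide other single libraries. Slc6a3 reached 62.05 CPM in a NAc library that was not among the 5. Slc17a7 reached 566 CPM in NAc and 153 in CPu, against medians of 7.20 and 8.59.

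Promoter sequences of 4 members on which the regional results turn are given first, so that the genes that separate midbrain, cortex and striatum can be read beside their values. They are RefSeq windows on GRCm38.p6 from 250 bases before to 50 bases after a start site, 5′ to 3′ on the gene's strand. Capitals mark a match to a searched motif. Foxa1 lies on the minus strand at chr12:57546062-57546361 and holds the forkhead letters TGTTTAC, read here from the other strand. Pitx3 lies on the minus strand at chr19:46148276-46148575 and holds the proneural E-box CAGATG, also read from the other strand. Tbr1 lies on the plus strand at chr2:61804203-61804502 and holds the homeodomain letters TAATTA at a pair of places and the TALE letters TGACAG once on the other strand. Six3 lies on the plus strand at chr17:85620584-85620883 and holds TGACAG once, the letters that Meis and Pbx proteins are known to bind.
Foxa1: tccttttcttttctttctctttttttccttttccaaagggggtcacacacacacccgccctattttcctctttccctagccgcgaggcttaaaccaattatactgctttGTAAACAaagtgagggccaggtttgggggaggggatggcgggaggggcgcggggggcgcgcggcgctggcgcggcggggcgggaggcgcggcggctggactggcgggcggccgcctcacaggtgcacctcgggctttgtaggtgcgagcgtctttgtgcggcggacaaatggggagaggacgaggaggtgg
Pitx3: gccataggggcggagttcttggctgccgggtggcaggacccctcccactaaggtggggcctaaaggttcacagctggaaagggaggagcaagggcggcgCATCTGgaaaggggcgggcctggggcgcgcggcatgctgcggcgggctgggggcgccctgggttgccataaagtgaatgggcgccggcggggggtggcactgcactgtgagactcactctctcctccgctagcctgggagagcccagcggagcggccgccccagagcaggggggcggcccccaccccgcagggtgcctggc
Tbr1: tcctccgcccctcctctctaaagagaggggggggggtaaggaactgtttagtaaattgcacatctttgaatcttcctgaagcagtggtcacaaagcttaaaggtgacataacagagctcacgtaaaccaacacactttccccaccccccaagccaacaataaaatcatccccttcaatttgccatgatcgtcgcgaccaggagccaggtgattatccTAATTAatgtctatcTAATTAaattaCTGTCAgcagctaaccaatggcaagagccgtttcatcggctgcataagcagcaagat
Six3: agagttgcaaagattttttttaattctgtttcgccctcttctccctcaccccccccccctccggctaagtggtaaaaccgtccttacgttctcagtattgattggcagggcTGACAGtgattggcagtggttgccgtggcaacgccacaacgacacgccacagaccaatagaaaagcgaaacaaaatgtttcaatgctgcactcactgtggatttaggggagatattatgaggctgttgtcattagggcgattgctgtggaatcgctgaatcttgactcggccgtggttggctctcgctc

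A window was present for 56 of the 78 members, 72 windows in all. These were rich in CpG dinucleotides, with a median of 17 per window against 7 over all 32851 windows, and a median GC content of 62.5% against 52.7%. Of the searched motifs, TGTTTAC on either strand was in 4.2% of member windows and 3.65% of all windows, TGACAG in 19.4% and 19.18%, CAGATG in 11.1% and 17.15%, and TAATTA, its own reverse complement, in 4.2% and 5.29%. A match describes the letters only. The RefSeq windows need not lie at the GENCODE start of the gene: the distance was 1 base for Pitx3, 805 for Foxa1, 1523 for Tbr1 and 7226 for Six3.

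In the control mice the members' levels were spread over all regions, but VTA was the region of the highest mean for 25 of them, against 13 each for NAc and vHipp, 11 for CPu, 10 for BLA and 6 for PFC. A gene's regional specificity was summarised by tau, which is 0 for a gene at the same level in all regions and 1 for a gene present in a single one. The median tau was 0.638 for members and 0.272 for all protein-coding genes at 1 CPM or more. Among members 20 (25.6%) had a tau above 0.8, against 3.78% of those genes. In 23 members (29.5%, against 7.46%) the highest regional mean was more than 2 times the next. These shares describe the libraries that chose the members. The heat map of 73 of the members shows the blocks: a VTA block of factors near 0 elsewhere, a striatal block shared by CPu and NAc, a block shared by PFC and vHipp, and a set of Sox, Pbx and Pou genes at similar levels in all 6.

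**Figure D1:**
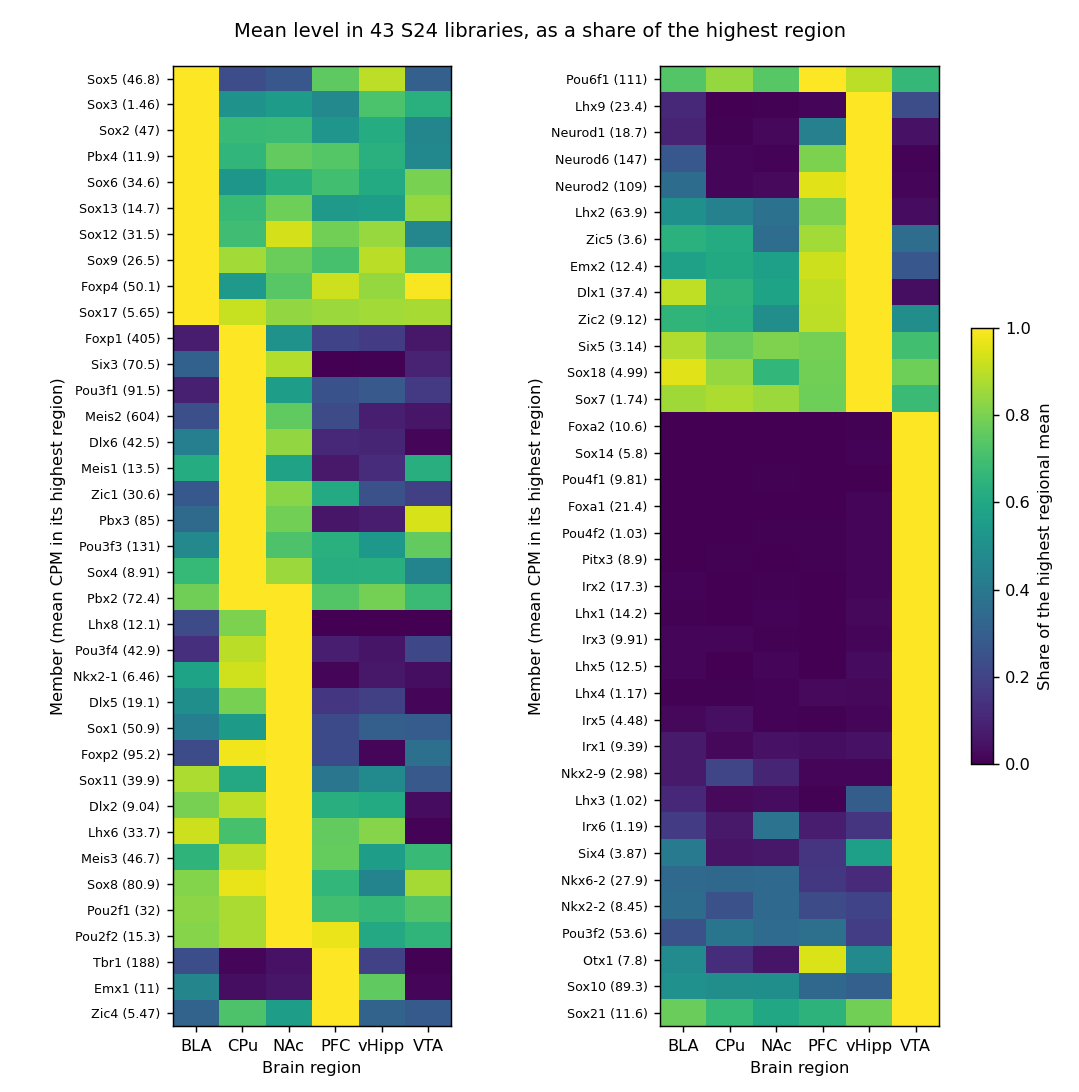
Mean level of 73 of the 78 members in the 43 control (S24) libraries, by brain region (x axis), as a share of the gene's highest regional mean (colour, 0 to 1). The number beside each symbol is that highest mean in CPM, from 604 for Meis2 in CPu to 1.02 for Lhx3 in VTA, and members are ordered by highest region and then by specificity.

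Which genes were most abundant differed by region when levels were set per kilobase of exon, in mean CPM per kb. Meis2, a TALE cofactor of ventral forebrain neurons, led in CPu (50.1) and NAc (38.0). Neurod6, a basic helix-loop-helix factor of cortical and hippocampal projection neurons, led in PFC (54.9) and vHipp (68.3). Sox10 led in VTA (29.3), and Sox2, a factor of neural stem cells and astroglia, in BLA (22.9). The leading member was thus a neuronal factor in the striatal, cortical and hippocampal regions and a Sox gene in VTA and BLA.

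The 187 libraries of the 37 mice of the other conditions had no part in choosing the members. There, 62 of the 78 had the same highest region as in the control mice, including all 23 whose highest regional mean had been more than 2 times the next. No such share was computed over all genes, so these counts describe the members alone. In the other 16 members the highest control mean had been at most 1.25 times the next. They included 7 Sox genes (Sox4, Sox6, Sox7, Sox8, Sox9, Sox13 and Sox17) and 3 Zic genes (Zic1, Zic2 and Zic5, each highest in PFC in these mice).

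In those 187 libraries each region was tested against the other five, with a 2-fold change as the minimum to be exceeded (edgeR glmTreat, adjusted over 18807 genes). The comparison is on the log scale, with the mean of the other five regions' log levels as the reference. A log2 fold change against regions near 0 depends on the small prior count of the fit, so levels in CPM stand beside it. At least 1 of the 6 comparisons was called for 54 members (69.2%), against 25.4% of all genes tested. Unlike the members, the genes tested were not limited to protein-coding genes or to a mean of 1 CPM in a region. In 38 members the calls ran in both directions, and 19 were called in 4 or more of the 6. Of all 18807 genes tested, 2349 had calls in both directions and 517 had calls in 4 or more. Each region is part of the reference for the others, so such calls are partly built into the comparison. For overlaps of calls between regions and for counts with the mouse as block, no share of all genes is given below. The remaining 24 members were called in none at this 2-fold minimum, which does not show equal levels in all regions. They included 14 of the 17 Sox genes, and Pbx2, Pbx4, Pou2f1, Pou2f2, Pou3f3, Pou6f1, Foxp4, Meis3 and Six5. Every member of the Dlx, Emx, Foxa, Irx, Lhx and Neurod families was called somewhere, as were Otx1 and Tbr1.

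**Figure D2:**
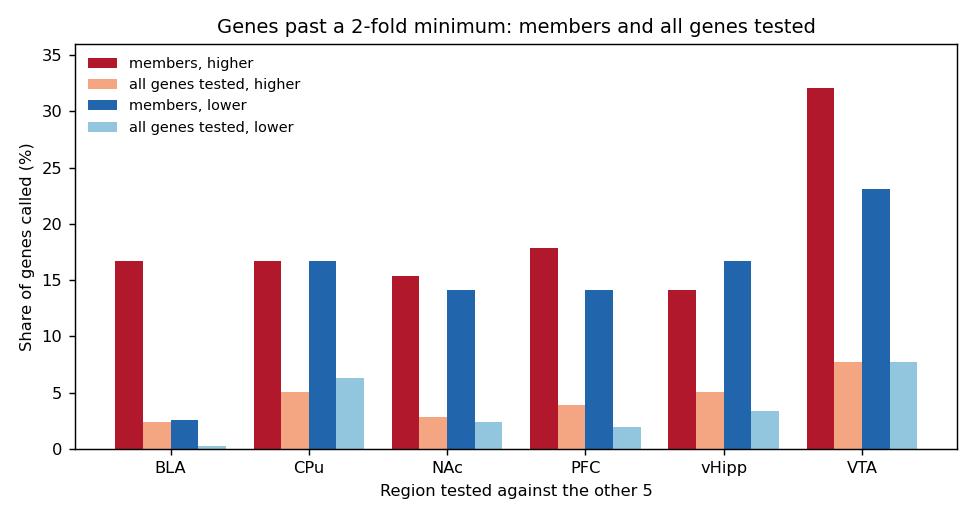
Share of genes (y axis, percent) called higher or lower in each region against the other five (x axis), for the 78 members and for all 18807 genes tested, in the 187 libraries outside S24. Members exceeded the share of all genes in each region and direction, from 2.56% against 0.234% lower in BLA to 32.1% against 7.75% higher in VTA. All genes tested were not limited, as the members were, to protein-coding genes at a mean of 1 CPM or more.

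VTA had the most members called higher, 25 of 78 (32.1%), where 7.75% of all genes tested were called higher. For 19 of these 25 VTA was the only region where they were called higher. All 5 Irx genes, both Foxa genes and Pitx3 were among the 19. Foxa1, a pioneer factor needed for the specification and upkeep of dopamine neurons, had 13.4 CPM in the lowest, 22.2 in the median and 28.5 in the highest of the 6 control libraries of VTA. In the other regions its control libraries reached at most 0.052 CPM, apart from the vHipp library with 159.8 CPM of Slc6a3. In the 25 VTA libraries of the other conditions Foxa1 had 28.01 CPM ± 8.90 (SD, n = 25) and in the other five regions a mean of 0.025 CPM, a log2 fold change of 10.54 (SE 0.117, glmTreat adjusted p = 5.07e-118). No library outside VTA reached the lowest VTA library, 12.8 CPM against at most 0.977. The 0.977 CPM was in the NAc library with 62.05 CPM of Slc6a3.

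Foxa2, its paralogue, had 9.81, 10.6 and 11.3 CPM in the lowest, median and highest control VTA library. Its other-condition level was 10.5 CPM ± 2.91 (SD, n = 25) in VTA against 0.0079 elsewhere (log2 fold change 10.14, SE 0.136). Pitx3, a homeodomain factor required by substantia nigra and part of the VTA dopamine neurons, had 3.51, 9.16 and 13.2 CPM in the control VTA libraries, a wider spread than Foxa2. It had 9.11 CPM ± 3.18 (SD, n = 25) in the other conditions against 0.035 elsewhere (log2 fold change 8.26, SE 0.132). For each of these 3 genes, every VTA library of the tested set lay above every library of the other regions.

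The members highest in VTA were not all genes of dopamine neurons. Sox14, a factor of GABAergic neurons of the diencephalon and midbrain, had 5.53 CPM ± 2.26 (SD, n = 25) against 0.0038, a log2 fold change of 9.48 (SE 0.156). Its VTA libraries did not overlap those of other regions. Pou4f1, which is known from the habenula and red nucleus, and Lhx1, Lhx5, Irx1, Irx2, Irx3, Irx5, Irx6, Lhx3, Lhx4, Nkx2-2, Nkx6-2, Pou3f2 and Pou4f2 were also higher in VTA alone. Lhx9, Nkx2-9, Otx1, Pbx3 and Six4 were among those called higher in VTA and in another region as well.

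In VTA 18 of 78 members were called lower (23.1%, against 7.72% of all genes tested, and also 18 with the mouse as block), and 16 of the 18 were called higher in a forebrain region. All 4 Dlx genes and both Emx genes were lower there. Lhx6, the factor of GABAergic interneurons that migrate from the medial ganglionic eminence, had 0.691 CPM ± 0.815 (SD, n = 25) in VTA against a mean of 29.3 in the other five (log2 fold change -5.46, SE 0.143, glmTreat adjusted p = 1.15e-72). No other region had a library as low as the highest VTA library, 18.4 CPM at the lowest against 3.85. Lhx8 had 0.069 CPM ± 0.256 (SD, n = 25) in VTA against 5.84 in the others (log2 fold change -4.97, SE 1.27), and 1 VTA library reached 1.30 CPM.

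CPu and NAc shared most of their calls. In CPu 13 members were called higher (16.7%, against 5.03% of all genes) and in NAc 12 (15.4%, against 2.87%), and 10 were called in both: Dlx5, Dlx6, Foxp1, Foxp2, Lhx8, Meis2, Nkx2-1, Pbx3, Pou3f4 and Six3. CPu alone of the 2 had Meis1, Nkx2-9 and Pou3f1, and NAc alone Lhx6 and Sox1. Six3, which is needed for the differentiation of striatal D2-type projection neurons, had 68.7 CPM ± 6.32 (SD, n = 34) in CPu and 61.9 CPM ± 8.71 (SD, n = 31) in NAc. Its log2 fold changes against the other five regions, with means of 21.15 and 22.5 CPM, were 3.43 (SE 0.151) and 3.26 (SE 0.155). Foxp1, a forkhead repressor of striatal and cortical projection neurons, had 421 CPM ± 63.5 (SD, n = 34) in CPu against a mean of 88.4 in the other five (log2 fold change 2.58, SE 0.0627), and 1 library of another region came within the range of the CPu libraries.

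Meis2 had 596 CPM ± 44.3 (SD, n = 34) in CPu against 185.1 elsewhere, a log2 fold change of 2.31 (SE 0.0625), with 12 NAc libraries in the CPu range. Dlx6, a homeodomain factor of forebrain GABAergic neurons, had 39.1 CPM ± 5.14 (SD, n = 34) in CPu and 33.7 CPM ± 8.52 (SD, n = 31) in NAc. The means of the other five regions were 14.25 and 15.32 CPM, and the log2 fold changes 2.42 (SE 0.108) and 2.18 (SE 0.113). Pou3f4, a POU factor of the developing striatum, had 45.6 CPM ± 9.58 (SD, n = 31) in NAc against 13.9 elsewhere (log2 fold change 2.33, SE 0.0734). The striatal pair thus shared homeodomain, forkhead and POU members.

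Lhx8 and Nkx2-1, the factors that specify cholinergic and medial ganglionic eminence neurons, were the lowest in absolute level of this group. In the control libraries Lhx8 had 8.197, 9.98 and 10.8 CPM (lowest, median, highest of 8) in CPu and 7.31, 12.1 and 18.1 CPM (of 8) in NAc. It had at most 0.054 CPM in any control library of PFC, vHipp or VTA. In the other conditions it had 9.21 CPM ± 1.21 (SD, n = 34) in CPu and 12.6 CPM ± 4.98 (SD, n = 31) in NAc. The means of the other five regions were 4.01 and 3.33 CPM, and the log2 fold changes 4.40 (SE 0.165) and 4.92 (SE 0.162). Nkx2-1 had 7.16 CPM ± 2.04 (SD, n = 31) in NAc against 2.38 in the other five (log2 fold change 2.66, SE 0.143). The summed level of 3 cholinergic markers (Chat, Slc5a7 and Slc18a3) ran from 85.4 to 133 CPM in CPu and from 55.5 to 109 CPM in NAc.

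The members called lower in the striatal regions included those of glutamatergic neurons. CPu had 13 (16.7%, against 6.3% of all genes) and NAc 11 (14.1%, against 2.41%). With the mouse as block the member counts were 20 and 12, with no share of all genes given. All 3 Neurod genes and Emx1 were lower in both. Neurod1, a factor of hippocampal granule and other excitatory neurons, had 0.077 CPM ± 0.195 (SD, n = 34) in CPu against 6.65 elsewhere (log2 fold change -5.02, SE 0.257), and Lhx9 had 0.071 CPM ± 0.061 (SD, n = 34) against 6.59 (log2 fold change -4.57, SE 0.251). In NAc, Neurod6 had 0.957 CPM ± 1.49 (SD, n = 31) against 53.9 (log2 fold change -4.23, SE 0.246) and Irx5 0.022 CPM ± 0.041 (SD, n = 31) against 1.04 (log2 fold change -3.39, SE 0.351). In these NAc libraries the median of Neurod6 was 0.274 CPM and its highest value 6.63.

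**Figure D3:**
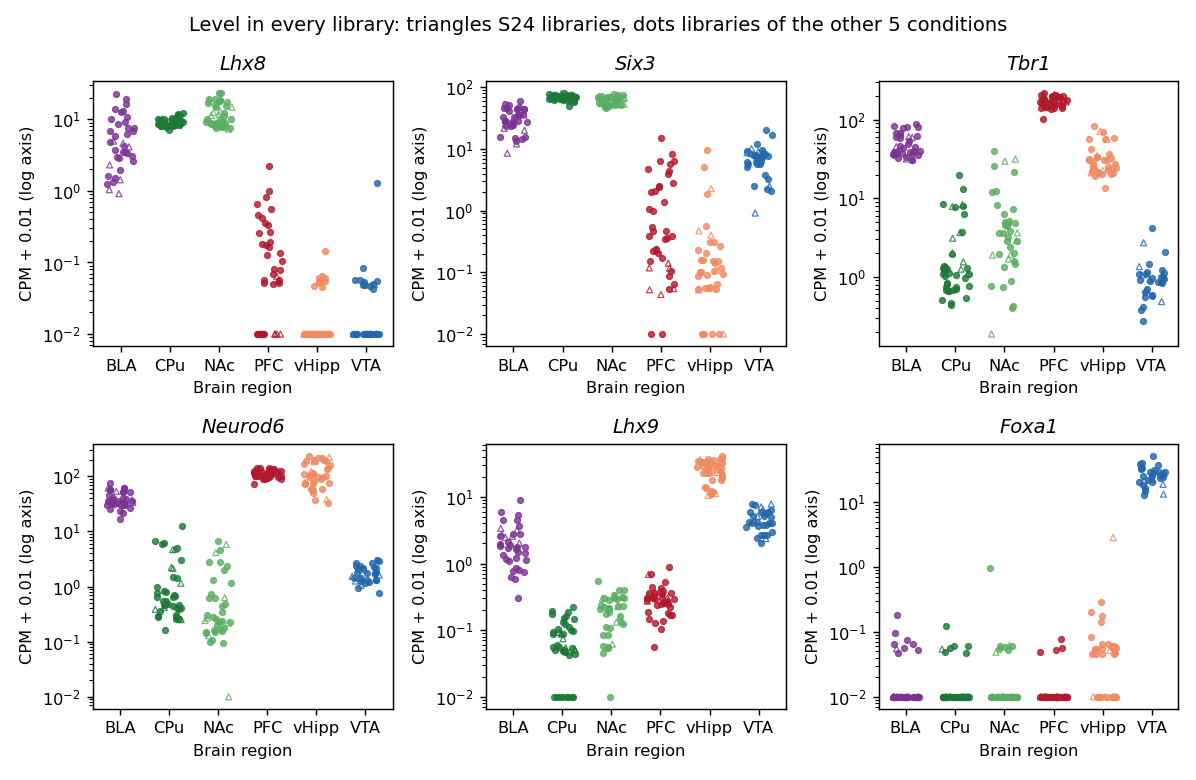
Level of 6 members (y axis, CPM + 0.01, log axis) in every library by brain region (x axis), with open triangles for the 43 control S24 libraries and dots for the 187 libraries of the other conditions. Foxa1 in VTA and Tbr1 in PFC lie apart from all other regions, while Lhx8 and Six3 in BLA spread over more than a factor of 10 and of 5.

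PFC and vHipp shared the Neurod factors, Tbr1 and Emx1 of glutamatergic neurons, and also Dlx1, from a family that marks GABAergic neurons. In PFC 14 members were called higher (17.9%, against 3.87%) and in vHipp 11 (14.1%, against 5.03%), with 8 in both, among them Dlx1, Emx1, Lhx2, Neurod1, Neurod2, Neurod6 and Tbr1. PFC alone of the 2 had, among others, Zic1, Zic2, Zic4, Zic5 and Otx1, and vHipp alone Emx2, Lhx9 and Six4. Tbr1, the T-box factor of early-born and deep-layer cortical neurons, had 163, 184 and 211 CPM (lowest, median, highest of 7) in the control PFC libraries, and the highest control library elsewhere had 71.7 CPM, in vHipp. In the other conditions it had 169 CPM ± 24.7 (SD, n = 34) in PFC against a mean of 18.7 in the other five, a log2 fold change of 4.52 (SE 0.146, glmTreat adjusted p = 7.71e-55). The lowest PFC library had 102 CPM and the highest of any other region 87.3, in BLA.

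Neurod6 and Neurod2, which act after cell cycle exit in cortical and hippocampal pyramidal neurons, had overlapping levels in PFC and vHipp. Neurod6 had 110.7 CPM ± 17.5 (SD, n = 34) in PFC and 116 CPM ± 57.9 (SD, n = 32) in vHipp, and Neurod2 91.5 CPM ± 14.2 (SD, n = 34) and 110 CPM ± 22.4 (SD, n = 32). Their log2 fold changes against the other five regions were 4.14 (SE 0.132) and 4.16 (SE 0.133) for Neurod6, and 3.95 (SE 0.130) and 4.29 (SE 0.132) for Neurod2. The means of those regions were 31.9 and 30.9 CPM for Neurod6, and 29.7 and 25.9 CPM for Neurod2. Emx1, which marks the cortical progenitor zone and its neurons, had 8.53 CPM ± 1.46 (SD, n = 34) in PFC and 7.01 CPM ± 2.11 (SD, n = 32) in vHipp. The means of the other five regions were 2.49 and 2.80 CPM, and the log2 fold changes 3.24 (SE 0.121) and 2.87 (SE 0.126). The spread of Neurod6 between vHipp libraries, from 32.5 to 236 CPM, was wider than between PFC libraries, from 72.2 to 142.96 CPM.

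Lhx9 and Neurod1 set vHipp apart. Lhx9 had 10.6, 23.4 and 36.5 CPM (lowest, median, highest of 7) in the control vHipp libraries and 2.35, 5.75 and 7.82 CPM (of 6) in those of VTA, the next region. In the other conditions it had 25.8 CPM ± 8.91 (SD, n = 32) in vHipp against 1.44 in the other five, a log2 fold change of 5.63 (SE 0.113, glmTreat adjusted p = 4.26e-85), with no library of another region above 8.96 CPM. Neurod1 had 21.6 CPM ± 7.96 (SD, n = 32) in vHipp against 2.35 (log2 fold change 4.81, SE 0.117). In PFC it had 8.50 CPM ± 1.86 (SD, n = 34) against 4.97 (log2 fold change 3.20, SE 0.122).

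In vHipp 13 members were called lower (16.7%, against 3.36%) and in PFC 11 (14.1%, against 1.98%). With the mouse as block the member counts were 13 and 17, with no share of all genes given. Lhx8 had 0.015 CPM ± 0.029 (SD, n = 32) in vHipp against 5.85 (log2 fold change -6.32, SE 0.974), and Six3 0.627 CPM ± 1.89 (SD, n = 32) against 34.8 (log2 fold change -5.79, SE 0.321). The median Six3 level in these vHipp libraries was 0.093 CPM and the highest 9.61. In PFC the largest differences downward were of genes that were higher in VTA: Irx2 had 0.010 CPM ± 0.021 (SD, n = 34) against 3.62 (log2 fold change -4.68, SE 0.533), and Lhx5 0.022 CPM ± 0.039 (SD, n = 34) against 2.70 (log2 fold change -4.17, SE 0.822). Of all members called higher in CPu or NAc, 10 were called lower in PFC or vHipp, and of those higher in PFC or vHipp, 9 were called lower in CPu or NAc.

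No member was called higher in BLA alone. There 13 members were called higher (16.7%, against 2.41%) and 2 lower (2.56%, against 0.234%; 4 with the mouse as block), and none of the 13 had its highest mean in BLA. They joined striatal and cortical factors: Dlx5, Dlx6, Lhx8, Nkx2-1 and Six3, which were also higher in CPu and NAc, and Emx1, Neurod2, Neurod6 and Tbr1, which were also higher in PFC and vHipp. Lhx6, Lhx9 and Meis1 were among the rest. Tbr1 had 50.6 CPM ± 17.6 (SD, n = 31) in BLA, against a mean of 42.4 in the other five. Its log2 fold change was 2.43 (SE 0.154). For Neurod6, at 39.6 CPM ± 13.8 (SD, n = 31) with a log2 fold change of 2.35 (SE 0.142), and Neurod2, at 33.8 CPM ± 13.8 (SD, n = 31) with a log2 fold change of 2.23 (SE 0.141), the BLA level was above the mean of the other regions on the log scale only. Their arithmetic means over the other five were 46.1 and 41.2 CPM. Emx1 had 4.52 CPM ± 2.01 (SD, n = 31) against 3.30 in the other five, a log2 fold change of 2.17 (SE 0.133).

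The striatal factors in BLA varied between libraries together with markers of striatal and cholinergic neurons. Lhx8 had 0.905, 2.30 and 4.97 CPM (lowest, median, highest of 7) in the control BLA libraries, and 1.24, 5.91 and 22.9 CPM in the 31 others. In these 31 its mean was 7.10 CPM, against 4.43 in the other five regions, with a log2 fold change of 3.87 (SE 0.176). The summed level of the 3 cholinergic markers in BLA ran from 1.40 to 114 CPM, and that of 6 markers of striatal projection neurons from 262 to 3211 CPM, against 3517 to 6459 CPM in CPu. Across the 38 BLA libraries Lhx8 tracked the cholinergic markers, with Pearson r = 0.95 and Spearman rho = 0.962 (permutation adjusted p = 1.5e-05 for each), and Six3 tracked the striatal markers, with r = 0.878 and rho = 0.86 (permutation adjusted p = 1.5e-05 for each). In PFC, where Six3 ran from below 0.1 to 14.96 CPM, its r with the same striatal markers was 0.979 and its rho 0.889 (n = 41, permutation adjusted p = 1.5e-05 for each). Leaving out the 2 libraries with the most extreme marker level gave r = 0.942, 0.868 and 0.978. With values centred on the condition mean, r was 0.938, 0.864 and 0.977. These relations were among 6 chosen after the values were seen, and the part of these markers in the BLA calls was not tested.

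The 2 members called lower in BLA without the block were Pou3f1, a POU factor of cortical projection neurons and Schwann cells, with 12.2 CPM ± 4.87 (SD, n = 31) against 41.0 in the other five (log2 fold change -1.45, SE 0.0819), and Lhx1, with 0.067 CPM ± 0.101 (SD, n = 31) against 2.94 (log2 fold change -2.12, SE 0.348). Both had libraries in BLA that overlapped those of other regions. BLA was not the region lowest in Lhx1, which had means of 0.027 CPM in CPu, 0.032 in PFC and 13.9 in VTA.

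Regions were also compared in pairs. Between CPu and NAc 4 of the 78 were called, 1 higher in CPu (1.28%, against 1.2% of all genes) and 3 lower (3.85%, against 1.51%), and all 4 were under 0.3 CPM in both regions. Irx5 had 0.153 CPM ± 0.105 (SD, n = 34) in CPu and 0.022 in NAc, while Lhx5 had 0.022 against 0.292, Lhx1 0.027 against 0.266 and Irx2 0.026 against 0.153. None of the 10 members called higher in both striatal regions was called between them at the 2-fold minimum, which does not show equal levels. Foxp1, one of the 10, had a mean of 421 CPM in CPu and 207 in NAc.

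Between PFC and vHipp 11 members were called higher in PFC (14.1%, against 3.22%) and 7 lower (8.97%, against 3.07%). Foxp2, a forkhead factor of deep-layer cortical and striatal neurons, had 24.6 CPM ± 5.19 (SD, n = 34) in PFC and 1.73 in vHipp (log2 fold change 3.98, SE 0.177). Lhx8 (0.255 against 0.015 CPM) and Six3 (2.18 against 0.627 CPM) were the next largest. The log2 fold change of Six3 was 2.65, and 4.46 without the libraries that stood apart. Lhx9 was lower in PFC, 0.292 CPM against 25.8 (log2 fold change -6.47, SE 0.205), as were Irx2 and Lhx5 at levels under 0.4 CPM.

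Between PFC and BLA 9 were higher in PFC (11.5%, against 2.06%) and 11 lower (14.1%, against 3.04%). The largest differences toward PFC were of Zic4 (10.2 CPM ± 5.81, SD, n = 34, against 1.67; log2 fold change 2.63, SE 0.206), Neurod1 (8.50 against 1.91; 2.23, SE 0.170) and Zic1 (37.7 CPM ± 23.4, SD, n = 34, against 10.9; 1.81, SE 0.180). Zic1 and Zic4 overlap on opposite strands of chromosome 9, so that reads counted without strand could not be told apart there, and their regional means correlated at 0.84 over 6 regions. Toward BLA the largest were of Lhx8 (0.255 against 7.10 CPM), Irx2 (0.010 against 0.236 CPM) and Six3 (2.18 against 33.6 CPM). Between vHipp and BLA 7 were higher in vHipp (8.97%, against 2.96%) and 12 lower (15.4%, against 3.64%). Neurod1 (21.6 against 1.91 CPM), Lhx9 (25.8 against 2.23 CPM) and Lhx1 (0.448 against 0.067 CPM) led toward vHipp, and Lhx8, Six3 (0.627 against 33.6 CPM) and Foxp2 (1.73 against 36.4 CPM) toward BLA.

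Members that lie next to each other on a chromosome mostly shared a regional pattern. Of 6 such pairs within 500 kb, Dlx5 and Dlx6 (9.2 kb apart on chromosome 6) and Zic2 and Zic5 (9.8 kb apart on chromosome 14) had regional means that correlated at 0.98, Dlx1 and Dlx2 (9.4 kb apart on chromosome 2) at 0.93, and Irx5 and Irx6 (298 kb apart on chromosome 8) at 0.88. The exception was Nkx2-1 and Nkx2-9, 74.5 kb apart on chromosome 12, at -0.11: Nkx2-1 was highest in NAc and Nkx2-9 in VTA. Each correlation is over 6 regional means from the control libraries and carries no test.

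The genes with no regional call were largely glial, vascular or widely present. Sox10 had 63.1, 91.4 and 108 CPM (lowest, median, highest of 6) in the control VTA libraries and medians of 25.8 to 45.4 CPM in the other regions, and its largest log2 difference in any region against the other five was 1.09, which was not called as larger than 2-fold. The highest control library outside VTA had 59.4 CPM, in BLA, below all 6 of VTA. In the other conditions PFC reached 93.6 CPM, within the VTA range of 62.6 to 106 CPM. Sox9 had control medians from 17.4 CPM in PFC to 25.5 CPM in BLA, and Sox17 from 4.36 CPM in vHipp to 5.23 CPM in BLA. Exons of another gene overlap 16.8% of the exon length of Sox17, and reads there could not be told apart without strand. The control ranges of Sox17 overlapped between all regions. Those of Sox9 overlapped too, except that its 7 BLA libraries (24.1 to 30.1 CPM) lay above those of PFC (15.8 to 23.3 CPM) and VTA (13.3 to 23.0 CPM). Of the Pbx genes, the general partners of Hox and Meis proteins, Pbx2 and Pbx4 had no call and Pbx3 had 5.

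Across the libraries of a region, 3 of these members were set against marker lists of the cell types they are known for, and 3 midbrain members against Slc6a3, in 21 relations in all (permutation tests, adjusted over the 21). Sox10 rose with 8 oligodendrocyte markers in all 6 regions, with r from 0.524 in VTA to 0.971 in PFC. In PFC, whose oligodendrocyte markers summed to between 1554 and 14991 CPM, rho was 0.977 (permutation adjusted p = 2.333e-05 for r and 2.625e-05 for rho, both from a raw p of 1e-05, the smallest that could be had), and r was 0.966 without the 2 most extreme libraries and 0.96 and 0.982 within the mice killed at 24 h and at 30 d. In VTA the r of Sox10 was 0.114 over the 12 libraries at 24 h and 0.709 over the 19 at 30 d. Sox17 rose with 8 endothelial markers in all 6 regions, with r from 0.564 in BLA to 0.761 in vHipp.

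Sox9 followed 8 astrocyte markers less evenly. Its r passed the permutation test in BLA (0.655), PFC (0.521), vHipp (0.404) and CPu (0.364), and was 0.053 in NAc (adjusted p = 0.746) and 0.296 in VTA (adjusted p = 0.11). With values centred on the condition mean, r was 0.314 in BLA (permutation adjusted p = 0.0576) and 0.532 in VTA (permutation adjusted p = 0.00283), so the call in both regions changed with the centring. Within BLA, r was 0.53 at 24 h (n = 13) and 0.182 at 30 d (n = 25).

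In VTA, Foxa1, Pitx3 and Foxa2 each rose with the dopamine transporter. Slc6a3 ran from 783 to 2933 CPM over the 31 VTA libraries. Foxa1 had r = 0.914 and rho = 0.842 with it, and Pitx3 r = 0.912 and rho = 0.882 (raw permutation p = 1e-05 for each, the smallest it can give). Without the 2 most extreme libraries r was 0.88 for both, and within the 24 h and 30 d mice it was 0.899 and 0.942 for Foxa1 and 0.951 and 0.865 for Pitx3. Foxa2 had r = 0.401 (permutation adjusted p = 0.0277) and rho = 0.391 (permutation adjusted p = 0.0338), with r = 0.372 without the 2 most extreme libraries, and 0.75 within the 24 h mice (n = 12) and 0.443 within the 30 d mice (n = 19). The difference between the correlations of Foxa1 and Foxa2 was not tested.

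In vHipp, 3 members varied with 3 markers of dentate granule cells, in relations chosen after the values were seen. The summed level of these markers ran from 20.3 to 402 CPM over the 39 libraries. Sox5 had r = -0.827 and rho = -0.865 with them, Neurod6 r = -0.636 and rho = -0.642, and Lhx9 r = -0.495 and rho = -0.537 (permutation adjusted p at most 0.00146). The vHipp libraries with lower dentate markers held more of all 3 members. Without the 2 most extreme libraries r was -0.835, -0.615 and -0.471.

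**Figure D4:**
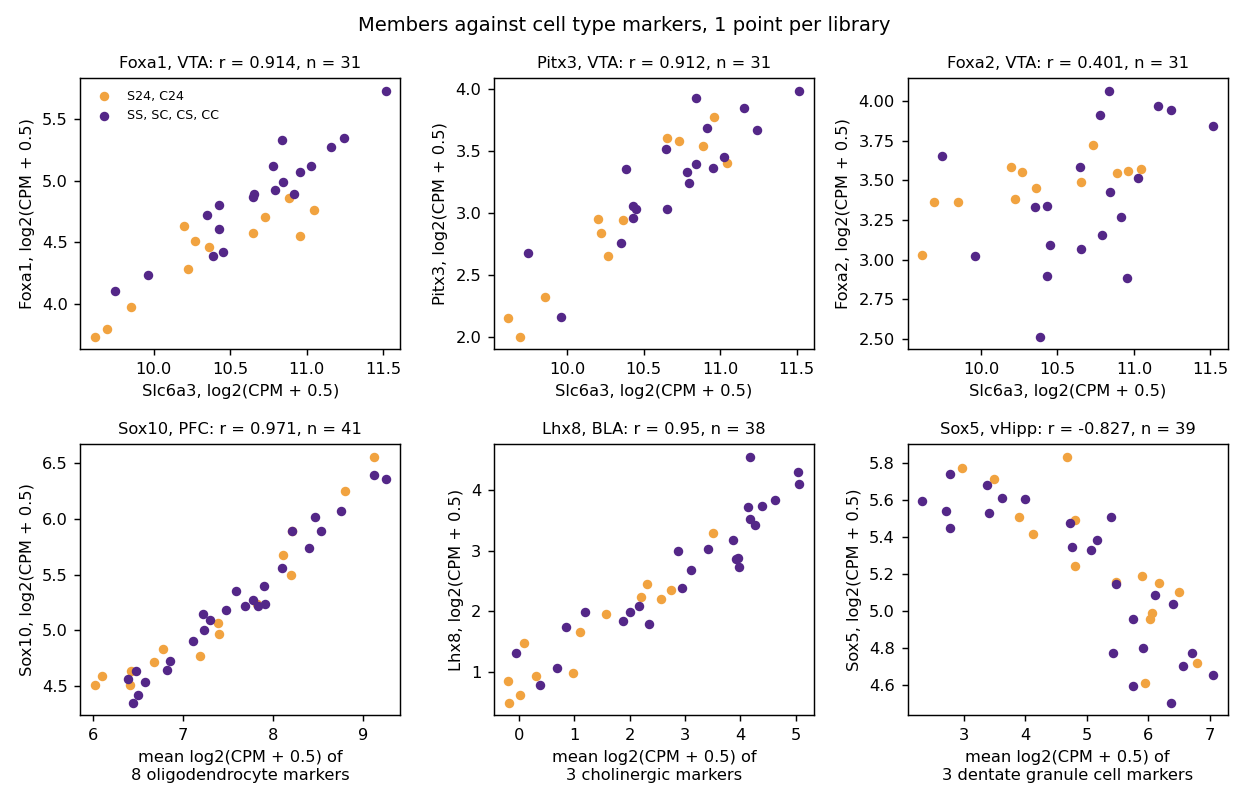
Member level against marker level, both as log2(CPM + 0.5), with 1 point per library: Foxa1, Pitx3 and Foxa2 against Slc6a3 in VTA (n = 31), Sox10 against oligodendrocyte markers in PFC (n = 41), Lhx8 against cholinergic markers in BLA (n = 38) and Sox5 against dentate granule cell markers in vHipp (n = 39). Orange points are S24 and C24 mice and purple points the 30 d mice; r is 0.914, 0.912, 0.401, 0.971, 0.95 and -0.827.

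Cocaine history and injection were compared within each region in 6 contrasts. At 24 h, C24 was set against S24. The S24 libraries also chose the members, so member counts in this contrast are given as a description. At 30 d, the SS mice served as the reference for CS, SC and CC, the CC mice were also set against CS, and an interaction term asked whether an injection of cocaine acted differently after cocaine than after saline. No member was called in any of the 36 region and contrast tests (edgeR quasi-likelihood F test, and none with DESeq2). Between 59 and 75 members were tested per region. In all, 6 genes were called over the 36 tests: 0.0118% of the genes tested for SC against SS in NAc, 0.00587% for it in BLA, 0.00585% for it and for C24 against S24 in VTA, 0.00602% for the interaction in CPu, and 0% in the other tests. An unadjusted p under 0.05 occurred in 131 of 2328 member tests (5.63%), against 3.93% over all genes.

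The smallest member p-values lay in vHipp. Sox17 had 5.08, 7.35 and 8.50 CPM (lowest, median, highest of 6) in SS and 2.95, 4.12 and 5.06 CPM (of 6) in CS, groups that did not overlap, with a log2 fold change of -0.84 (SE 0.209, edgeR adjusted p = 0.246, with 0% of all genes called). Sox5, a factor of oligodendrocyte precursors and deep-layer neurons, had 22.1, 25.1 and 34.9 CPM (of 6) in SS and 26.8, 46.0 and 50.9 CPM (of 7) in SC, which overlapped, with a log2 fold change of 0.69 (SE 0.173, edgeR adjusted p = 0.504). Sox5 also had the smallest p of the interaction, a log2 value of -1.01 (SE 0.254, edgeR adjusted p = 0.384). The dentate markers differed between these groups: their summed level was 164 to 402 CPM in SS, 26.2 to 313 CPM in CS and 20.3 to 377 CPM in SC. The endothelial markers summed to 208 to 299 CPM in SS and 168 to 231 CPM in CS. The choroid plexus markers reached 139.8 CPM in SS, 29518 CPM in CS and 25241 CPM in SC, and 1 of 6 SS, 3 of 6 CS and 2 of 7 SC libraries were among those that stood apart. Their part in these member differences was not tested.

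For C24 against S24 the smallest single-region p was of Sox17 in CPu, with 4.15, 5.23 and 6.05 CPM (lowest, median, highest of 8) in S24 and 5.52, 6.74 and 9.37 CPM (of 8) in C24. The groups overlapped and the log2 fold change was 0.40 (SE 0.111, edgeR adjusted p = 0.641). In CPu the endothelial markers summed to 172 to 307 CPM in S24 and 194.9 to 358 CPM in C24. The C24 against S24 contrast includes the libraries that chose the members. In PFC 16 of 62 members had an unadjusted p under 0.05 in this contrast, all higher in C24, against 8.19% of all genes, and none was called. They were Sox2, Sox4, Sox6, Sox7, Sox9, Sox10, Sox11, Sox17, Sox18, Sox21, Nkx2-2, Six3, Zic5, Dlx2, Pou3f3 and Pou3f4. The oligodendrocyte markers summed to 1554, 2289 and 6694 CPM (lowest, median, highest) in the 7 control PFC libraries and 1642, 6006 and 12470 CPM in the 8 of C24. The medians of the endothelial (169 and 212 CPM), astrocyte (3124 and 3536 CPM) and striatal markers (123 and 156 CPM, with highest values of 148.5 and 362 CPM) were also higher in C24. The part of these markers was not tested.

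For CC against SS the smallest single-region p was of Meis3 in vHipp, with a log2 fold change of -0.43 (SE 0.148, edgeR adjusted p = 0.871), and for CC against CS of Lhx1 in VTA, at -0.25 (SE 0.0899, edgeR adjusted p = 1). Lhx6, the interneuron factor that was low in VTA, had a log2 fold change of 2.18 there for SC against SS (SE 0.607, edgeR adjusted p = 0.903). It had 0.383, 0.696 and 3.85 CPM (lowest, median, highest of 5) in SC and 0.148, 0.225 and 0.665 CPM (of 6) in SS, which overlapped.

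Averaged over the 6 regions, no member was called in any of the 6 contrasts either (limma with the mouse as block). In C24 against S24, 0.851% of 18927 genes were called. The S24 libraries of this contrast had also chosen the members. There 10 of the 78 members had an unadjusted p under 0.05 (8.9% of all genes did), and all 10 were higher in C24. Sox17 was the first of them, with a log2 fold change of 0.23 (SE 0.0652, limma adjusted p = 0.0622), followed by Nkx2-2, a factor of oligodendrocyte differentiation, at 0.26 (SE 0.0812, limma adjusted p = 0.12), and Sox7, Sox21, Sox12 and Sox18. The endothelial markers had a higher median in C24 than in S24 in CPu (229.1 against 193.7 CPM), PFC (211.6 against 169), vHipp (215.8 against 188.1) and VTA (236.6 against 204.3), also in NAc (189 CPM in C24), and a lower one in BLA (185.6 against 207.1), and their part was not tested. Without the mouse block Sox17 (limma adjusted p = 0.0252) and Nkx2-2 (limma adjusted p = 0.0492) were called. The other contrasts, in which between 0 and 0.111% of genes were called, had few members at an unadjusted p under 0.05. Relative to SS there were 4 for CS (4.44% of all genes had such a p, and 0.0581% were called), 2 for SC (5.18% and 0.111%) and 4 for CC (7.53% and 0.0317%). There were none for CC relative to CS (2.26% and 0%) and 4 for the interaction (2.94% and 0.0423%). For CC relative to SS the smallest was of Meis3, with a log2 fold change of -0.11 (SE 0.0451, limma adjusted p = 0.607). The median log2 change of the members lay between -0.09 and 0.05 in the 6 contrasts and that of all genes between -0.01 and 0.01.

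**Figure D5:**
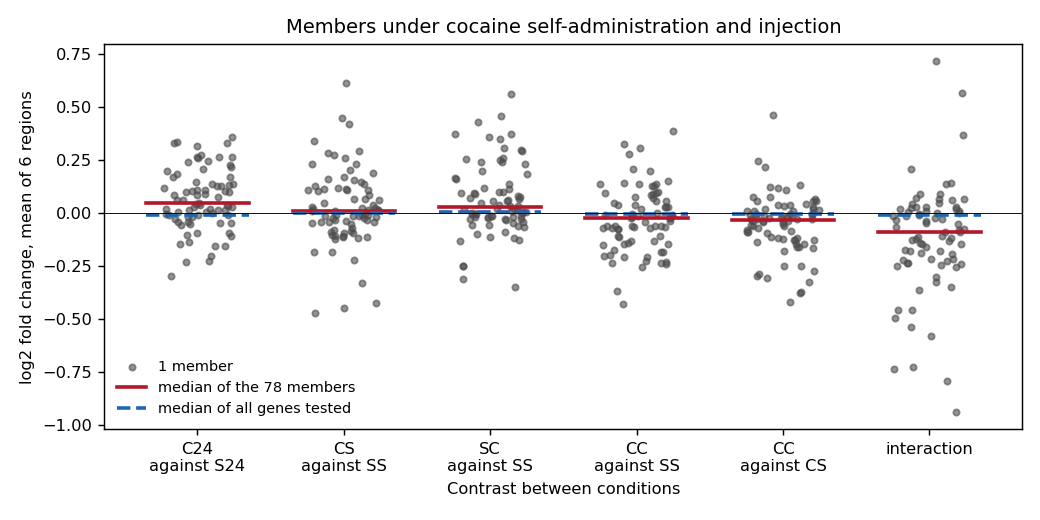
Log2 fold change of each of the 78 members averaged over 6 regions (y axis) in the 6 contrasts between conditions (x axis), with the members' median (solid line) and the median of all 18927 genes tested (dashed line). No member passed the adjusted threshold of 0.05, and the medians lie between -0.09 and 0.05.

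Other developmental transcription factors, from a list of 50 of which 47 were tested, were described in the same way. Of the 47, 37 were called in at least 1 region against the other five, where 25.4% of all genes were. In VTA 13 were higher and 11 lower (7.75% and 7.72% of all genes). En1, which is needed for the survival of midbrain dopamine neurons, had 60.9 CPM in VTA against 0.054 in the other five (log2 fold change 10.79), and Lmx1b, another gene of the dopamine lineage, 25.1 against 0.097 (8.24). In PFC 9 were higher and 7 lower (3.87% and 1.98% of all genes). Among the higher was Fezf2, a factor of subcortical projection neurons, at 82.2 CPM against 13.0 (log2 fold change 4.39). In CPu 7 were higher and 13 lower (5.03% and 6.3% of all genes), and in NAc 6 and 9 (2.87% and 2.41%). Both were led by Isl1, a factor of striatal direct-pathway and cholinergic neurons, at 20.7 and 23.2 CPM with log2 fold changes of 4.34 and 4.53. In vHipp 11 were higher and 5 lower (5.03% and 3.36% of all genes), with Prox1, a factor of dentate granule cells, at 93.5 CPM against 19.1 (log2 fold change 2.32). In BLA 8 were higher and none lower (2.41% and 0.234% of all genes). Among the higher was Nr2f2, a nuclear receptor of caudal forebrain territories, at 80.8 CPM against 21.2 (log2 fold change 2.86).

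Proteins that bind or inhibit these factors were listed as well. Of 28 partners and inhibitors, 11 were called in at least 1 region, where 25.4% of all genes were. In CPu these were Dach1, a corepressor that acts with Eya proteins (118 CPM against 15.5, log2 fold change 3.21), Lmo2, a LIM-only partner of LIM-homeodomain complexes (71.8 against 17.1, 2.24), and the corepressor Tle4 (169 against 73.96, 1.29). Lmo4 and Ldb2, further LIM partners, were higher in PFC (log2 fold changes 1.27 and 1.66) and lower in VTA (-1.54 and -1.42). Eya1 and Eya2, coactivators that partner proteins such as Six4, were higher in vHipp (1.42 and 1.60). Ldb1, the obligate cofactor of LIM-homeodomain proteins, was not among those called.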

How the data were processed

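Bulk RNA-seq libraries were made after ribosomal RNA depletion, per the labels' protocols, although the labels' molecule field names polyA RNA. The deposited table holds raw read counts per gene of 43346 genes, made by the authors with HTSeq on mm10, with limma also named, per the submitters' processing notes. The aligner and the strand setting are not given in the sources used here. CPM were computed from these counts with edgeR 4.0.16 in R 4.3.3, and exon lengths came from GENCODE on GRCm38.

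Regions were compared with edgeR's quasi-likelihood fit and glmTreat at a 2-fold minimum in the 187 libraries outside S24, conditions within a region with its F test, and conditions over 6 regions with limma 3.58.1 with the mouse as block. Genes passed edgeR's filter at a count of 10. P-values were adjusted by Benjamini-Hochberg over all genes tested, at a threshold of 0.05. DESeq2 1.42.0 was an alternative. Correlations used log2(CPM + 0.5) and 100000 permutations, two-sided. The models were tested on simulated data.

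The number in a library's title was read as the mouse, since each number occurs in 1 condition and in several regions. Over 486 pairs of libraries of 1 mouse the median correlation of deviations from the group means was 0.067, against -0.0096 over 3228 pairs of different mice of a condition. The consensus correlation within a mouse was 0.0398.

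The genes named are, in each region, up to 5 members called higher and 2 called lower with the largest changes, in each pair of regions up to 3 in each direction, and with no call in a condition contrast the member with the smallest p. Other named genes were chosen after their values were seen. The members and gene lists were chosen with earlier results of these data known, and 6 of the correlations were added after the values were seen. Alternatives left out single mice, libraries that stood apart and the low-count filter, and changed the normalization, the fold minimum and the block. Results of some members and listed genes are not reported here.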

Additional observations from a re-analysis of the deposited data

Results flagged for a closer look

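Among 33 groups of 4 to 10 control libraries examined, 2 had a library far from the others, where chance gives about 1 in 20. The PFC library of 1 control mouse had 58.85 CPM of Sox10. The vHipp library of another control mouse had 41.36 CPM of Sox10.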

How the results depend on the processing

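The 64 named regional comparisons kept direction and call with DESeq2 or its size factors, without the libraries that stood apart, without the low-count filter, with a replicate block for the mouse and with no fold minimum. At a 4-fold minimum 49 kept the call, 15 lost it and none reversed. With no fold minimum, members higher and lower numbered 34 and 24 in BLA, 30 and 27 in CPu, 30 and 23 in NAc, 26 and 26 in PFC, 25 and 30 in vHipp, with 38 lower in VTA. For the pairs they were 20 and 22 (CPu against NAc), 31 and 23 (PFC against vHipp), 27 and 32 (PFC against BLA) and 26 and 32 (vHipp against BLA). At 4-fold they were 1 and 0 in BLA, 5 and 7 in CPu, 4 and 6 in NAc, 5 and 5 in PFC, and 6 and 7 in vHipp. For the pairs these were 0 and 1, 1 and 4, and 1 and 7 in the same order, with 2 higher in vHipp than in BLA. The fold minimum itself sets these counts. No share of all genes is given beside them, so they describe the members alone. With the replicate block, members lower numbered 4 in BLA, 20 in CPu and 17 in PFC, and DESeq2 called 4 higher in vHipp than in BLA. The cause was not tested. Over 6 regions, the fit with no replicate block called 2 members in C24 against S24 and none in the other contrasts. The 38 fits that left out 1 library each called 0 members. The correlation of Sox9 with astrocyte markers, centred on the condition mean, was 0.3141 in BLA and 0.5316 in VTA. In NAc it was -0.02011 without the libraries standing apart, an alternative chosen after seeing the data. The cause was not tested. With another limit the number of members was 71 (2 CPM) or 85 (any biotype). Members near 0 outside VTA rest on few counts per library. The smallest group, CS in VTA, had 3 libraries.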
